A study of Bos taurus with 11 samples.

Results

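The genes described here encode the machinery of vesicle traffic. They are all genes in either deposited table whose bovine symbol starts with RAB or ARF followed by a digit, or with ARL, VPS, SNX, COPA, COPB, COPE, COPG or COPZ. The rule used names and no measured value, and it found 141 genes among the 12056 transcripts listed in either table. The table of GATA3 KO lists 126 of them and the table of CDX2 KO lists all 141, and each gene is represented by 1 RefSeq transcript.

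RNA was sequenced from single bovine early blastocysts on day 7 after fertilization, from 4 GATA3 KO, 4 CDX2 KO and 3 WT control embryos. At the zygote stage all embryos, controls included, received mRNA of BE3, a cytosine base editor that a guide RNA directs to its target. The KO embryos also received a mixture of guides against GATA3 or CDX2, transcription factors of the trophectoderm, which is the outer layer of the blastocyst that forms the placenta. Each embryo gave 1 Smart-seq2 library from polyadenylated RNA, and the same WT control embryos stand in both tables. An injected embryo can hold cells with different edits, and the share of edited cells in each sequenced embryo was not analysed here. The study checked editing of both genes by Sanger sequencing of cDNA. The columns of KO embryos carry numbers 3 to 6 for GATA3 KO and 2 to 5 for CDX2 KO, which serve here as embryo names.

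Proteins and membrane move between compartments of a cell in vesicles. RAB, ARF and ARL proteins are small GTPases that act as switches on each membrane and recruit coats, motors and tethers. Coatomer (the COPI coat) carries cargo back from the Golgi to the endoplasmic reticulum and within the Golgi. VPS proteins and sorting nexins (SNX) build the complexes that sort cargo at endosomes, such as retromer for recycling, ESCRT for degradation, and GARP, HOPS and CORVET for tethering and fusion. Trophectoderm is a polarized epithelium, in which such traffic is known to keep membrane domains apart.

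Values are the authors' normalized counts, that is read counts divided by a size factor for each embryo within 1 table. Libraries of the table of GATA3 KO held 150057 to 540775 reads. Those of the table of CDX2 KO held 100731 to 662962, the lowest being CDX2 KO embryo 3. The same WT control embryos hold 1.78 to 1.85 times as many reads in the table of CDX2 KO over the 8567 transcripts listed in both, so embryos were compared only within a table. GATA3 itself was lower in all GATA3 KO embryos, with 13.0, 12.9, 13.1 and 9.85 in embryos 3 to 6 against 87.6, 71.3 and 80.8 in the WT control embryos. The paper saw no obvious shift of GATA3 or CDX2 transcripts in the respective KO embryos, and these GATA3 values differ from that. The reason for the difference was not tested. CDX2 had only 6 to 14 reads in the WT control embryos and 2 to 8 in the CDX2 KO embryos, so it checks those labels weakly. The embryos also differed in reads of 4 Y-linked genes (TSPY, USP9Y, DDX3Y and EIF1AY), with 29 to 98 in the WT control embryos against 0, 0, 2 and 68 in GATA3 KO embryos 3 to 6, and 46 to 149 against 0, 0, 0 and 155 in CDX2 KO embryos 2 to 5. Of the 15 trophectoderm markers listed for the check of tissue, 12 were in the table of GATA3 KO and 15 in that of CDX2 KO, and KRT8, KRT18 and the inner cell mass marker POU5F1 were read in both.

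The first comparison asks how the trafficking genes differ between GATA3 KO and WT embryos. Members with a mean of at least 10 entered the limma test, run on log2(normalized count + 1), which left 75 of the 126 members among 4271 transcripts. To pass, a transcript needed a Benjamini-Hochberg adjusted p of 0.05 or less together with a fold change of 1.5 or more, or of 0.6 or less. Only ARF4 and RAB6A passed, both higher in GATA3 KO embryos, which is 2 of 75 members against 2.01% of all transcripts tested. A share this near the background is not a result about the members as a set. No member passed in the lower direction, where 0.468% of all transcripts did. At an unadjusted limma p under 0.05, 23 members were higher and 3 were lower, against 14.8% and 7.84% of all transcripts. With edgeR on the recovered reads 2 members passed as higher and 0 as lower, where 57 and 69 of all 4271 transcripts did. With DESeq2 it was 2 and 1, the latter being RAB15, where 72 and 86 of all transcripts passed.

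ARF4 encodes a class II ARF GTPase of the early Golgi that recruits coat proteins. WT control embryos 1 to 3 had ARF4 at normalized counts of 37.9, 10.8 and 20.2, and GATA3 KO embryos 3 to 6 had 60.8, 53.4, 57.2 and 68.2. The values of WT control embryos 2 and 3 rest on 10 and 13 reads. All KO embryos stood above all controls, and the KO embryos lay closer together than the controls. Means were 23.0 ± 13.7 (SD, n = 3) and 59.9 ± 6.28 (SD, n = 4). The log2 fold change was 1.51 with a standard error of 0.34 (95% interval 0.80 to 2.21), or 2.84-fold (limma with Benjamini-Hochberg adjustment, adjusted p = 0.0295). An exact two-sided permutation test of ARF4 alone gave p = 0.0286, the smallest p that 3 against 4 embryos allow.

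RAB6A encodes the RAB of the Golgi that drives transport back to the endoplasmic reticulum and the exit of secretory carriers. It stood at 22.1, 14.1 and 18.7 in the WT control embryos and at 65.1, 37.9, 52.4 and 34.5 in the GATA3 KO embryos. WT control embryos 2 and 3 had 13 and 12 reads of RAB6A. The groups did not overlap, and here the KO embryos were the more variable group, at 47.5 ± 14.1 (SD, n = 4) against 18.3 ± 4.04 (SD, n = 3). RAB6A had a log2 fold change of 1.31 with a standard error of 0.30 (95% interval 0.68 to 1.94), or 2.48-fold (limma with Benjamini-Hochberg adjustment, adjusted p = 0.0335, exact permutation p = 0.0286).

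Both calls depended on which embryos were in the fit and on the prior of limma. Neither gene passed when that prior did not follow the mean. When 1 embryo at a time was removed, ARF4 had log2 fold changes of 1.08 to 1.94 and RAB6A of 1.14 to 1.45. Neither gene passed in 5 of these 7 fits, those without GATA3 KO embryo 3, 4 or 5 or without WT control embryo 2 or 3, where limma with Benjamini-Hochberg adjustment gave adjusted p-values up to 0.152. In these 5 fits the calls over all transcripts fell from 86 to between 1 and 39. Without WT control embryo 1, 10 members passed and all were higher in KO, namely ARF4, ARL1, ARL14EPL, RAB10, RAB1A, RAB6A, SNX3, VPS29, VPS35 and VPS37A, while calls over all transcripts reached 293. Without GATA3 KO embryo 6 the members that passed were ARF4, ARL14EPL, COPB1, RAB6A and VPS37A, of 183 transcripts in all. A fit with a yes-or-no covariate for more than 3 Y-linked reads was added after the data were seen. All WT control embryos had more than 3, but of the GATA3 KO embryos only embryo 6 did. Its fold changes therefore set that embryo alone against the controls, with a log2 fold change of 1.70 for ARF4 and 0.90 for RAB6A. With 1 KO embryo this fit cannot decide whether either call holds.

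**Figure D1:**
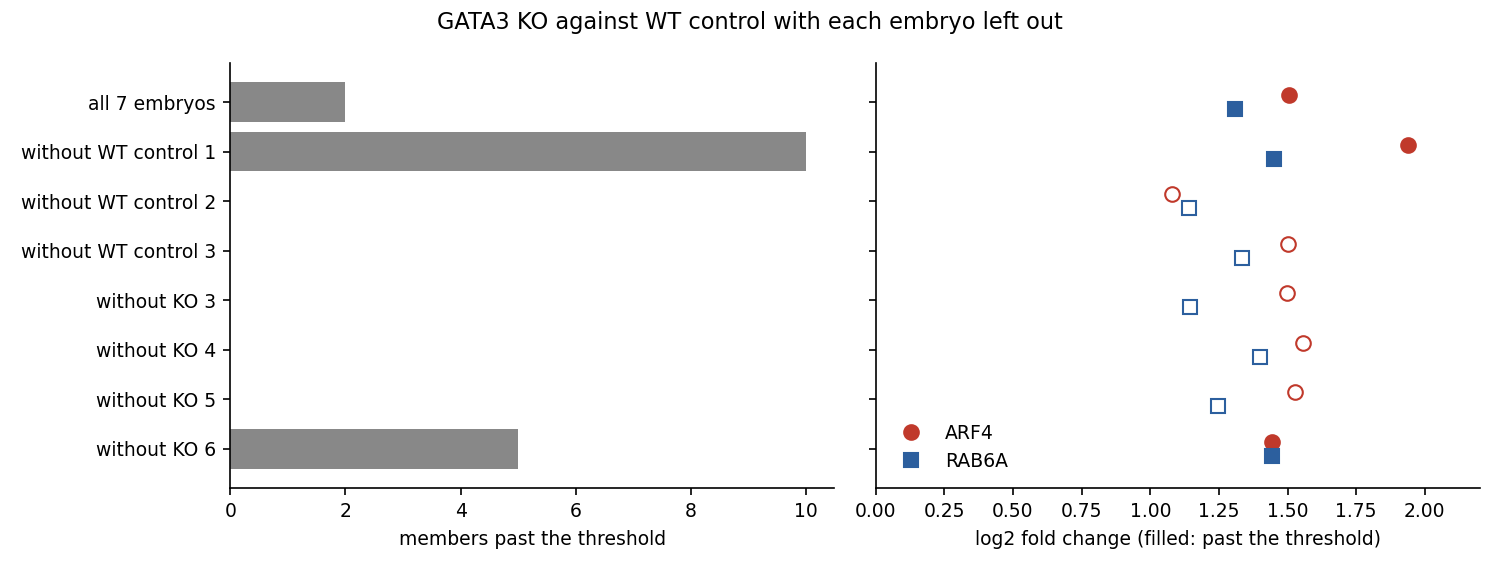
The left panel counts the members past the threshold in the comparison of GATA3 KO with WT control, with all 7 embryos and with each embryo left out, and the right panel gives the log2 fold change of ARF4 (circles) and RAB6A (squares) in the same fits, filled where the gene passed. The count runs from 0 to 10, while the fold changes stay above 1.

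WT control embryo 1 stood apart from the other controls for these genes. It was the highest control for 48 of the 75 tested members (64.0%) and for 40.4% of all transcripts. The median over the members of log2 value minus WT mean was 0.25 in this embryo, against -0.05 and -0.06 in WT control embryos 2 and 3. In GATA3 KO embryos 3 to 6 the same median was 0.38, 0.33, 0.27 and 0.39, where the medians over all transcripts were 0.12, 0.12, 0.12 and 0.13.

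Summed over all 126 listed members, normalized counts were 2786, 2264 and 2255 in the WT control embryos and 2919, 2804, 2818 and 2843 in the GATA3 KO embryos. All KO sums lay above all control sums, with WT control embryo 1 just below the lowest KO embryo. In bulk embryos, more cells of a type and more RNA per cell cannot be told apart. The median log2 fold change was 0.29 over the 75 members and 0.11 over all 4271 transcripts. Without the filter on low values it was 0.02 over all 126 members and -0.13 over all transcripts. Of the members, 46 (61.3%) had a positive fold change, against 57.2% of all transcripts. The median over all transcripts depends on scaling, since it was 0.00 after quantile normalization and 0.01 after rescaling by median ratios, where the members had 0.30 and 0.20. Calls over all transcripts moved with it from 66 higher and 20 lower to 48 higher and 57 lower (quantile normalization) and 56 and 53 (median ratios), while the members that passed were ARF4 and RAB6A in both. Relative to the median of all transcripts, the log2 fold change of ARF4 was 1.39 and that of RAB6A 1.195.

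In 20 of the 75 members the values of the groups were fully apart. KO lay above for 16 (21.3%, against 11.9% of all transcripts tested) and below for 4 (5.33%, against 7.05%). Besides ARF4 and RAB6A, large differences without overlap were in VPS37A and ARL1.

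VPS37A encodes a subunit of ESCRT-I, which sorts ubiquitinated cargo into multivesicular bodies. Normalized counts of VPS37A were 10.3, 6.48 and 4.66 in the WT control embryos and 18.8, 22.0, 23.8 and 14.8 in the GATA3 KO embryos. With a log2 fold change of 1.39 and a standard error of 0.39 it did not pass (limma with Benjamini-Hochberg adjustment, adjusted p = 0.0573). Its control mean was 7.14, under the cutoff of 10, so it entered the test only through its KO embryos.

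ARL1 encodes a GTPase of the trans-Golgi that recruits golgin tethers. It stood at 22.9, 13.0 and 4.66 in the WT control embryos and at 28.9, 31.5, 27.4 and 37.0 in the GATA3 KO embryos, so the controls were spread widely. Its log2 fold change was 1.37 with a standard error of 0.39 (limma with Benjamini-Hochberg adjustment, adjusted p = 0.0634). The low values of ARL1 and VPS37A in WT control embryo 3 rest on 3 reads each.

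The tested members that lay below all controls in every GATA3 KO embryo were RAB15, VPS51, ARF5 and COPG1. RAB15 encodes a RAB of early and recycling endosomes. Its normalized counts were 45.8, 37.8 and 26.4 in the WT control embryos and 7.24, 21.1, 22.6 and 13.1 in the GATA3 KO embryos, with a log2 fold change of -1.23 and a standard error of 0.37 (limma with Benjamini-Hochberg adjustment, adjusted p = 0.0712). With DESeq2 on the recovered reads, RAB15 passed with an adjusted p of 0.0496. VPS51 encodes a subunit shared by the GARP and EARP tethers. It stood at 11.8, 31.3 and 17.1 in the controls and at 10.1, 9.05, 5.96 and 9.85 in the KO embryos, so that KO embryo 3 lay just under WT control embryo 1 (log2 fold change -1.03, limma with Benjamini-Hochberg adjustment, adjusted p = 0.161).

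**Figure D2:**
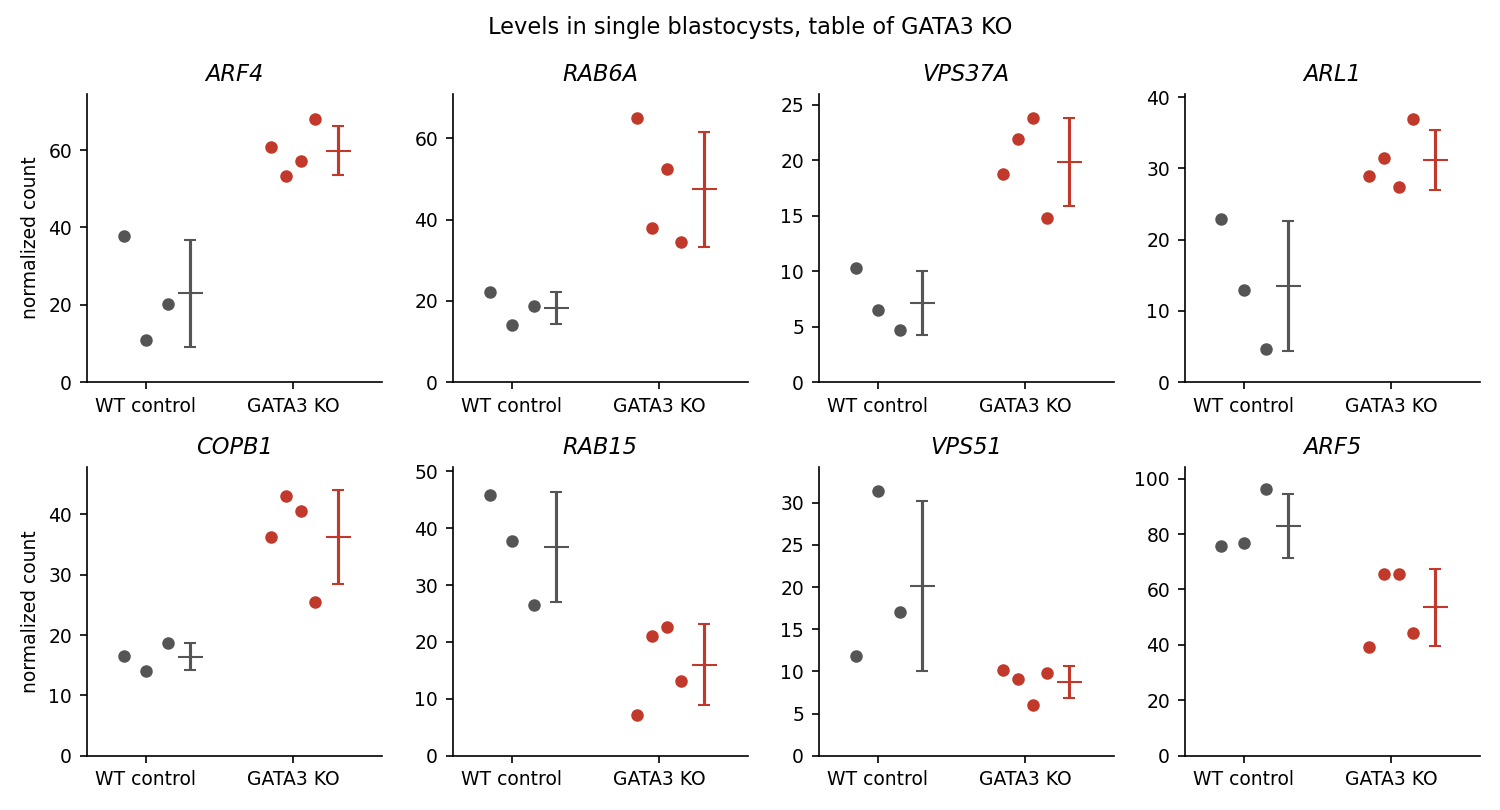
Normalized counts of 8 members in single blastocysts of the table of GATA3 KO, with 3 WT control embryos in grey and 4 GATA3 KO embryos in red, and the bar at the right of each group giving mean ± SD. ARF4, RAB6A, VPS37A, ARL1 and COPB1 lie above all controls in every KO embryo and RAB15, VPS51 and ARF5 lie below, and of these ARF4 and RAB6A passed the threshold.

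The ARF GTPases had fold changes in both directions in GATA3 KO embryos. ARF1, a class I ARF that recruits coatomer to the Golgi, had 111, 61.6 and 87.0 in the controls and 78.2, 104, 106 and 111 in the KO embryos (log2 fold change 0.23, 95% interval -0.31 to 0.78). ARF2, another class I ARF, had 30.8, 19.5 and 28.0 against 28.9, 27.1, 11.9 and 26.3 (log2 fold change -0.19, 95% interval -0.90 to 0.52). Both overlapped between the groups. ARF5, the other class II ARF, was lower in the KO embryos, at 75.8, 76.7 and 96.4 in the controls and 39.1, 65.5, 65.5 and 44.3 in the KO embryos. The groups of ARF5 did not overlap, and its log2 fold change of -0.65 did not pass (95% interval -1.21 to -0.09, limma with Benjamini-Hochberg adjustment, adjusted p = 0.168). ARF3 was too low to be tested, with 4.66 to 8.68 in the controls and 7.39 to 12.1 in the KO embryos. The median over the 4 tested ARF genes was 0.02, and it was -0.10 after quantile normalization and -0.09 after rescaling by median ratios. It was 0.18 without WT control embryo 1 and 0.22 with the Y-linked covariate, which sets KO embryo 6 alone against the controls.

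Of the 7 coatomer genes listed, 6 were tested and none passed. At an unadjusted limma p under 0.05, 1 of the 6 was higher and 0 were lower, where 14.8% of all transcripts were higher and 7.84% lower, and edgeR and DESeq2 called 0. The one, COPB1, encodes the beta subunit of the coat and stood at 16.6, 14.1 and 18.7 in the WT control embryos and at 36.2, 43.1, 40.5 and 25.5 in the GATA3 KO embryos. All KO embryos were above all controls, with a log2 fold change of 1.08 and a standard error of 0.29 (limma with Benjamini-Hochberg adjustment, adjusted p = 0.0547). COPA, the alpha subunit, had 35.5, 43.2 and 38.9 against 66.6, 68.1, 60.7 and 40.2, where only KO embryo 6 lay within the range of the controls (log2 fold change 0.55, adjusted p = 0.232 in the same fit). COPG1, the gamma-1 subunit, lay below the controls in every KO embryo, at 37.9, 24.9 and 34.2 against 20.3, 21.5, 23.8 and 23.8 (log2 fold change -0.49, adjusted p = 0.309 in the same fit). COPB2, COPE and COPZ1 overlapped between the groups with log2 fold changes of 0.09, -0.09 and 0.14. COPG2 had at most 9 reads in any embryo and was not tested. ARCN1, the delta subunit, falls outside the symbol rule, with a log2 fold change of 0.23 (adjusted p = 0.692). The subunits of this single complex therefore had fold changes on both sides of 0, with a median of 0.11 that equals the median of all transcripts to 2 decimals.

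The retromer core had fold changes above 0 in each of its 3 tested subunits. VPS35, the scaffold of the complex, had 42.6, 17.3 and 34.2 in the controls and 65.1, 70.7, 53.6 and 46.0 in the KO embryos, without overlap (log2 fold change 0.96, standard error 0.31, limma with Benjamini-Hochberg adjustment, adjusted p = 0.0865). VPS26A had 43.4, 20.5 and 35.8 against 79.6, 35.3, 77.4 and 41.9, and VPS29 had 50.5, 21.6 and 31.1 against 47.8, 59.0, 60.7 and 53.4. For VPS26A, KO embryo 4 lay below WT control embryos 1 and 3 and KO embryo 6 below WT control embryo 1, and for VPS29, KO embryo 3 lay below WT control embryo 1. The log2 fold change was 0.77 for VPS26A (adjusted p = 0.188 in the same fit) and 0.74 for VPS29 (adjusted p = 0.154). The alternative subunit VPS26B was not tested, and its counts of 8.68, 8.65 and 15.5 in the controls and 0.0, 6.46, 3.57 and 4.93 in the KO embryos lay in the other direction. Summed over the 4 subunits, the table gave 145, 68.1 and 117 in the controls and 193, 172, 195 and 146 in the KO embryos, so that the highest control and the lowest KO embryo met.

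Sorting nexins that work with retromer were looked at next, a choice made after their values were seen. SNX1, SNX2, SNX5 and SNX6 form the membrane-bending part of the complex, and SNX3 and SNX27 are cargo adaptors of retromer. SNX1 had 30.8, 25.9 and 35.8 in the controls and 57.9, 56.9, 47.6 and 58.3 in the GATA3 KO embryos, without overlap (log2 fold change 0.83, limma with Benjamini-Hochberg adjustment, adjusted p = 0.0789). SNX3 had 92.3, 31.3 and 42.0 against 97.0, 82.3, 105 and 87.0, where WT control embryo 1 lay among the KO embryos (log2 fold change 0.88, adjusted p = 0.114 in the same fit). SNX2 and SNX5 overlapped between the groups, where the log2 fold change was 0.80 for SNX2 and 0.68 for SNX5 (adjusted p = 0.182 and 0.205). SNX6 and SNX27 overlapped too, at 0.61 and -0.05 (adjusted p = 0.283 and 0.954). Of the 14 sorting nexins tested none passed, 5 were higher and 0 lower at an unadjusted limma p under 0.05 (14.8% and 7.84% of all transcripts), and edgeR and DESeq2 called 0. Their fold changes ran from -0.70 for SNX8 to 0.88 for SNX3, with a median of 0.47.

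The RAB family was the largest, with 45 listed and 24 tested. These were 38 RAB GTPases, 22 of them tested, and 7 effectors and regulators that are no RABs themselves, 2 of them tested. RAB6A was the one gene past the threshold, and 14 of the 22 GTPases had positive fold changes, where 57.2% of all transcripts did, with a median of 0.47. Of the 24, 5 lay above all controls in every KO embryo (RAB6A, RAB10, RAB14, RAB2A and RAB21), against 11.9% of all transcripts. RAB10, which acts in exocytosis and in basolateral sorting of epithelia, had 37.1, 48.6 and 23.3 in the controls and 82.5, 56.9, 66.7 and 99.4 in the KO embryos (log2 fold change 1.08, limma with Benjamini-Hochberg adjustment, adjusted p = 0.0555). RAB11A, the RAB of recycling endosomes, had 145, 80.0 and 109 against 158, 144, 143 and 178. Its KO embryos overlapped with WT control embryo 1, and its log2 fold change was 0.51 (adjusted p = 0.227 in the same fit). RAB1A, of transport from the endoplasmic reticulum to the Golgi, had a log2 fold change of 0.66 and its close relative RAB1B one of -0.35, and neither passed (adjusted p = 0.212 and 0.602). How reads shared by such near-identical relatives were assigned is not given in the sources used here, so the values of RAB1A and RAB1B, like those of ARF1 and ARF3, are uncertain relative to each other.

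In the ARL family 17 genes were listed and 10 tested, with a median log2 fold change of 0.78 and 8 positive values. Of these, 5 are GTPases, 4 of them with positive fold changes between 0.79 (ARL2) and 1.37 (ARL1), and ARL10 at -0.78. The other 5 are partner proteins that carry the ARL symbol but are no GTPases, such as ARL6IP1 of the endoplasmic reticulum. ARL14EPL, one of these, had the largest fold change of the 75 tested members, 1.64, yet its embryos overlapped, at 14.2, 2.16 and 6.22 in the controls and 42.0, 28.9, 16.7 and 9.03 in KO (limma with Benjamini-Hochberg adjustment, adjusted p = 0.0916). The VPS family had 28 genes listed and 17 tested, with a median of -0.04, 8 positive and 9 negative values. VPS25 of ESCRT-II had 63.9, 68.1 and 60.6 against 40.5, 65.1, 66.7 and 72.3 (log2 fold change -0.10, 95% interval -0.65 to 0.45). No ARL, VPS or SNX gene passed in the full fit. At an unadjusted limma p under 0.05 there were 6 ARL genes higher and 0 lower, and 4 VPS genes higher and 1 lower, where 14.8% of all transcripts were higher and 7.84% lower. With edgeR and DESeq2 both families gave 0 calls. Under the other scalings the medians kept their sign for RAB, ARL, VPS and SNX, and for COPI the median was -0.01 after quantile normalization and 0.01 after rescaling by median ratios. The VPS median turned to 0.14 without WT control embryo 1, and the SNX median was 0.72 without that embryo. With the Y-linked covariate, which sets KO embryo 6 alone against the controls, the VPS median was 0.17.

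**Figure D3:**
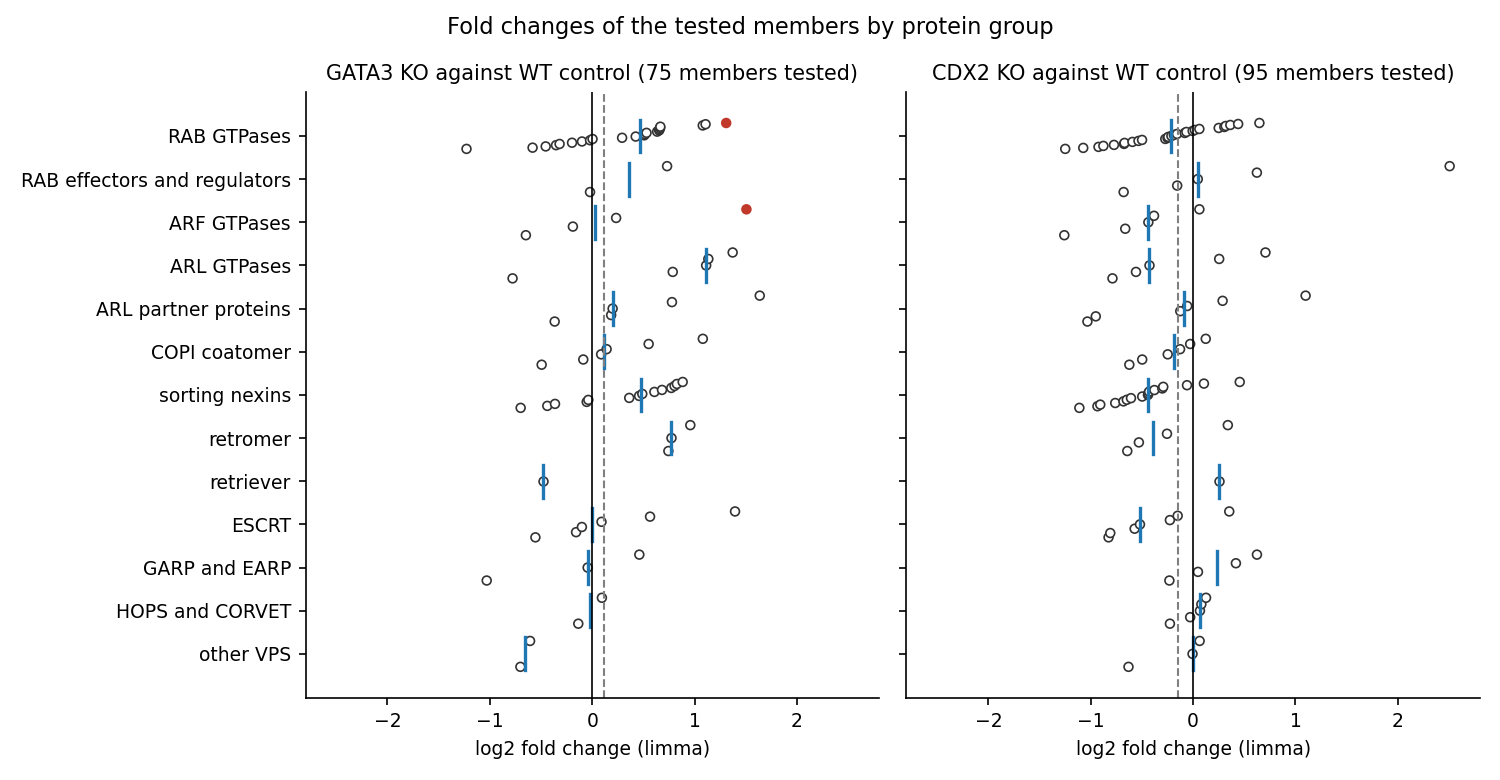
Each circle is the log2 fold change of 1 tested member against WT control, 75 in the table of GATA3 KO (left) and 95 in that of CDX2 KO (right), set out by protein group. Blue bars are group medians, the dashed line is the median of all transcripts tested (0.11 and -0.15), and the filled circles are ARF4 and RAB6A, which passed the threshold.

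The remaining 51 members of the table of GATA3 KO had means from 1.85 to 9.98 and were not tested. RAB4A and RAB9A lay above all controls in every KO embryo, 2 of 51, where 2.3% of all the untested transcripts did so. RAB11FIP5, SNX25 and VPS26B lay below all controls, 3 of 51, where 13.4% of the untested transcripts did so. RAB9A, of transport from late endosomes to the trans-Golgi, is X-linked and had 7.10, 1.08 and 4.66 in the controls and 21.7, 11.6, 15.5 and 8.21 in KO embryos 3 to 6. The KO embryo with the most Y-linked reads, number 6, was the lowest of the KO embryos. The part of the Y-linked difference in this result was not tested.

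The second comparison asks the same of CDX2 KO embryos. Of 141 members 95 were tested among 5719 transcripts, and 0 passed, as did 0.0% of all transcripts (limma with Benjamini-Hochberg adjustment). At an unadjusted limma p under 0.05, 1 member was higher (RAB3IL1) and 1 was lower (ARL6IP1), against 1.73% and 1.54% of all transcripts. With edgeR 0 members passed among 1 transcript in all, and with DESeq2 0 members passed among 10. Groups did not overlap for 3 members, 1 above (against 2.52% of all transcripts) and 2 below (against 3.36%).

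ARL6IP1 encodes a protein that shapes tubules of the endoplasmic reticulum. It had 170.0, 107 and 108 in the controls and 41.7, 67.6, 72.2 and 84.3 in CDX2 KO embryos 2 to 5. All KO embryos lay below all controls, with a log2 fold change of -0.95 and a standard error of 0.41 that did not pass (limma with Benjamini-Hochberg adjustment, adjusted p = 0.90). COPB2, the beta-prime subunit of coatomer, also lay below, at 26.0, 21.3 and 21.8 against 15.9, 9.32, 17.4 and 17.2 (log2 fold change -0.62, standard error 0.41). VPS52 of the GARP and EARP tethers lay above, at 14.6, 13.4 and 16.1 against 25.7, 32.6, 16.6 and 20.4 (log2 fold change 0.62, 95% interval -0.24 to 1.49).

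The largest fold change in CDX2 KO was in RAB3IL1, an exchange factor for RAB3 proteins and no RAB itself. Its normalized counts were 7.61, 0.0 and 1.15 in the controls and 30.6, 21.0, 6.64 and 8.59 in the KO embryos, so that KO embryo 4 lay below WT control embryo 1. Its log2 fold change of 2.51 has a 95% interval of 0.17 to 4.85 and rests on at most 25 reads in an embryo (limma with Benjamini-Hochberg adjustment, adjusted p = 0.90). RAB27B, a RAB of secretory granules that was too low to be tested, had no read in any WT control embryo and at most 5 reads in a KO embryo. These values come close to the floor of 3 reads, which stood for a normalized count between 1.61 and 6.99 in the libraries of this table.

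The spread between CDX2 KO embryos was wide for the members. CDX2 KO embryo 3, the shallowest library, lay below all controls for 50 of the 95 tested members and for 2727 of all 5719 transcripts, so the members were not alone in this. KO embryos 2, 4 and 5 did so for 35, 21 and 14 members and for 2126, 1383 and 1066 of the 5719 transcripts. The median of log2 value minus WT mean was -0.26, -0.58, 0.04 and 0.10 in CDX2 KO embryos 2 to 5, and over all transcripts it was -0.15, -0.39, 0.05 and 0.10. The part of library depth in this spread was not tested. Summed normalized counts of the members were 4162, 2984 and 3089 in the controls and 2504, 2181, 3582 and 3657 in the KO embryos, with overlap.

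ARF4, which was higher in GATA3 KO, had 53.3, 12.6 and 19.5 in the controls of this table and 9.81, 0.0, 26.5 and 37.6 in CDX2 KO embryos 2 to 5. The log2 fold change was -1.26 with a 95% interval of -3.44 to 0.93, and the 0 came from KO embryo 3. RAB6A had 33.0, 17.4 and 25.2 in the controls and 14.7, 23.3, 28.2 and 38.1 in the CDX2 KO embryos, a log2 fold change of 0.02 with a 95% interval of -0.92 to 0.95. Both sets of values overlap between the groups. Because the comparisons share their control embryos and the tables were normalized separately, the difference between the knockouts was not tested.

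**Figure D4:**
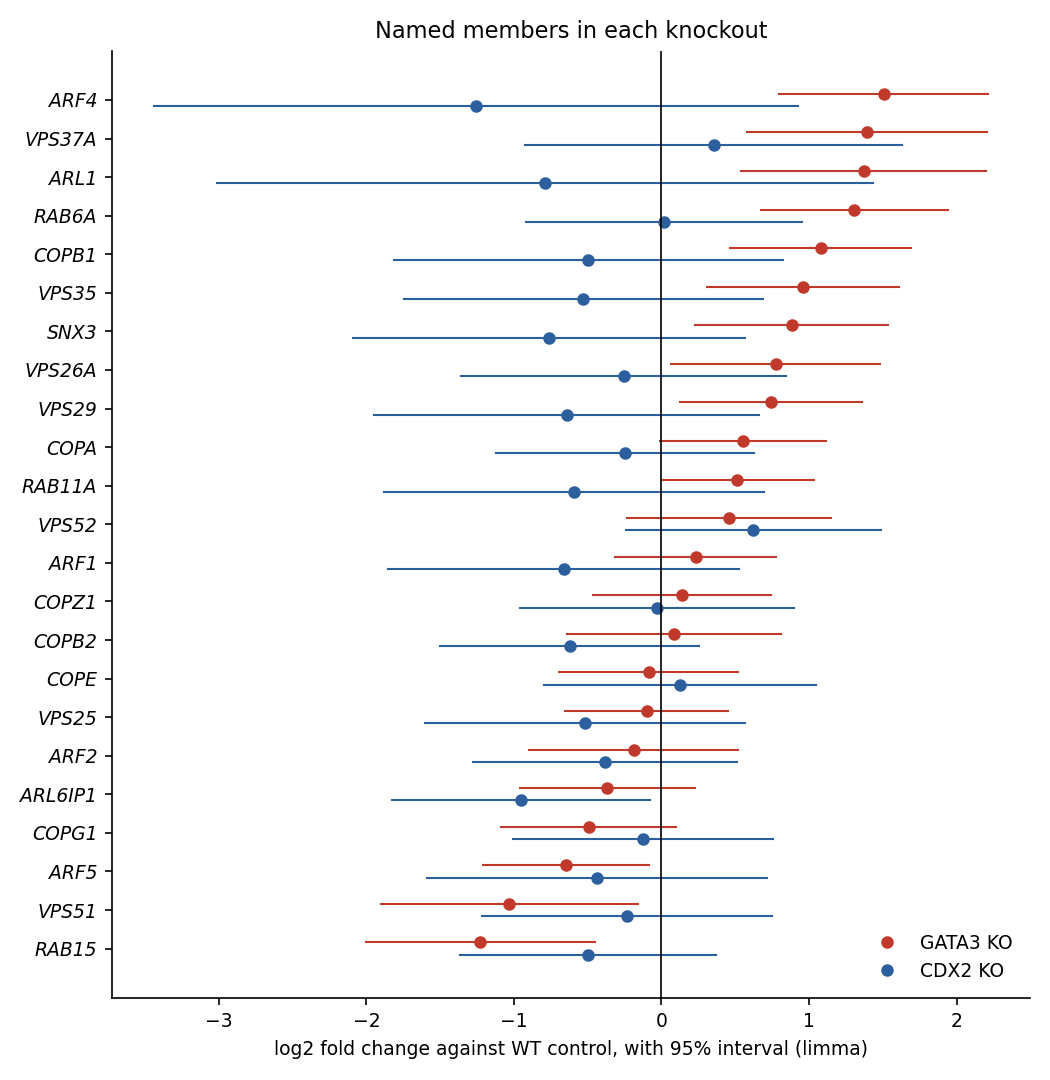
Log2 fold change against WT control with its 95% interval (limma) for the named members tested in GATA3 KO, red for GATA3 KO and blue for CDX2 KO. The comparisons share the WT control embryos, and the intervals of CDX2 KO are wider for ARF4 (-3.44 to 0.93) than those of GATA3 KO (0.80 to 2.21).

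In CDX2 KO the 17 tested sorting nexins had a median of -0.44, where the median of all transcripts was -0.15. Of the 17, 2 were positive and 15 negative, where 39.5% of all transcripts and 30.5% of the tested members were positive. The sorting nexin median was -0.29 without WT control embryo 1. It was -0.12 with the Y-linked covariate, which here sets CDX2 KO embryo 5 alone against the controls. The 5 ARF GTPases had the same median to 2 decimals, -0.44. The 27 tested RAB GTPases had a median of -0.21, the 5 RAB effectors and regulators 0.05, the 11 ARL genes -0.13, the 24 VPS genes -0.09 and the 6 coatomer genes -0.19. With edgeR and DESeq2 on the recovered reads the RAB GTPase, ARL and VPS medians were above 0 (0.04 to 0.06 for RAB GTPases, 0.04 to 0.06 for ARL, 0.02 to 0.04 for VPS) and those of SNX, ARF and COPI stayed below, where the median of all transcripts was 0.01 and 0.03. With the Y-linked covariate (KO embryo 5 alone) the medians of RAB GTPases, ARF, ARL and COPI were above 0, as was that of all transcripts at 0.10. The retromer subunits VPS35, VPS26A and VPS29 had log2 fold changes of -0.53, -0.25 and -0.64, and VPS26B, tested in this table, 0.34. All 4 overlapped between the groups, with limma 95% intervals that hold 0.

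**Figure D5:**
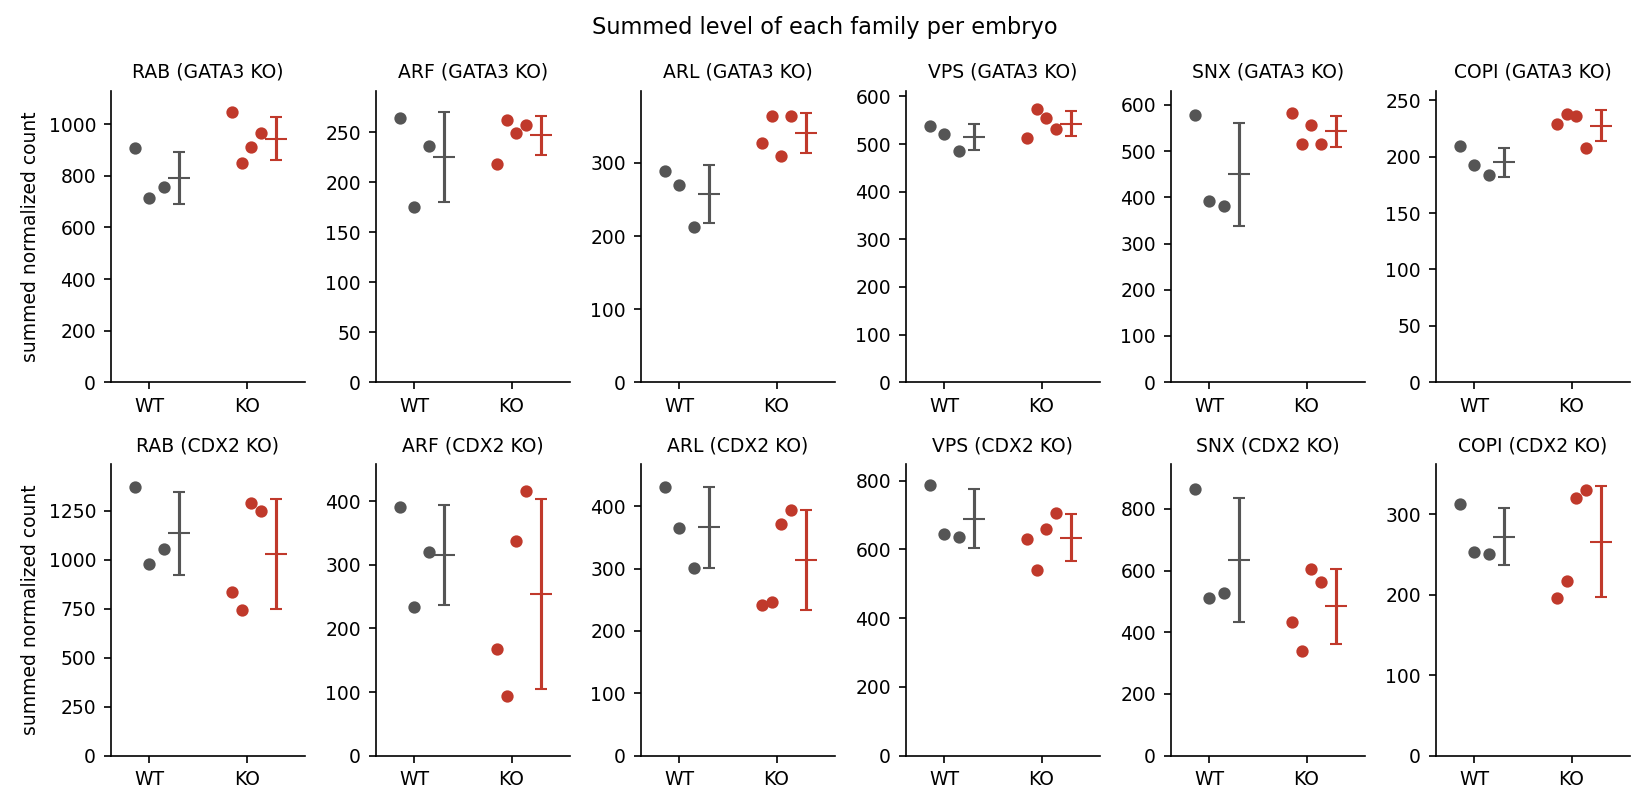
Summed normalized counts of each family per embryo in the table of GATA3 KO (top) and of CDX2 KO (bottom), with 3 WT control embryos in grey, 4 KO embryos in red, and mean ± SD at the right of each group. In the top row the sums of ARL genes lie at 213 to 289 in the controls and 310 to 365 in the KO embryos without overlap, while in the bottom row every family overlaps.

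The table of CDX2 KO lists 15 members that the table of GATA3 KO does not, and 46 of its members were too low to be tested, with means from 1.99 to 9.99. Of the 46, RAB27B and SNX25 lay above all controls in every KO embryo and RAB3IP below, where 4.22% of all untested transcripts of that table lay above and 1.41% below. Among the 15 are RAB3A, RAB3B, RAB3C and RAB27B, which are RAB proteins of regulated secretion, and the lysosome-related RAB32. Of the 95 members tested, 6 had no read in at least 1 embryo (ARF4, ARL1, RAB3IL1, RAB5A, RAB5IF and VPS72). The last of these, VPS72, carries a VPS symbol and encodes a chromatin protein.

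Other genes of the same pathways were taken from 7 lists of partners that the symbol rule does not hold. In GATA3 KO, 3 of the 108 tested genes of these lists passed (2.78%), all higher, where 1.55% of all transcripts passed as higher and 2.01% in either direction. The fit with the Y-linked covariate rests on 1 KO embryo, so it cannot decide whether these calls hold. TMED2, a cargo receptor between the endoplasmic reticulum and the Golgi, had 12.6, 8.65 and 4.66 in the controls and 37.6, 32.3, 20.3 and 28.7 in the KO embryos, a log2 fold change of 1.73 with a standard error of 0.36 (limma with Benjamini-Hochberg adjustment, adjusted p = 0.0245). It was the only one to pass of 15 tested genes in a list of COPII and cargo receptor genes, which also holds ARCN1. STX7 and STX12, SNAREs that fuse endosomes, were 2 of 18 tested SNARE and fusion genes. STX7 had 28.4, 17.3 and 12.4 against 57.9, 44.8, 46.5 and 42.7 (log2 fold change 1.33, adjusted p = 0.0309 in the same fit). STX12 had 24.5, 7.57 and 7.77 against 42.0, 25.4, 51.2 and 37.8 (log2 fold change 1.65, adjusted p = 0.0335). All KO embryos were above all controls for the 3 genes, and with edgeR and DESeq2 TMED2 and STX7 passed and STX12 did not.

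The other lists had no gene past the threshold in GATA3 KO by limma, edgeR or DESeq2 with all embryos. Without WT control embryo 1, 2 RAB chaperones and regulators passed as higher, CCZ1 and GDI2, and 247 of all 4271 transcripts did. At an unadjusted limma p under 0.05, 0 of 13 ARF exchange factors and GAPs, 4 of 11 RAB chaperones and regulators (3 higher, 1 lower), 4 of 21 clathrin and adaptor genes (all lower), 0 of 15 tethers and 2 of 15 ESCRT genes outside the VPS symbols (both higher) were below it, against 14.8% of all transcripts higher and 7.84% lower. TSG101, the ESCRT-I partner of VPS37A, was one of these, at 7.89, 10.8 and 9.33 in the controls and 21.7, 28.4, 31.0 and 17.2 in the KO embryos (log2 fold change 1.28, limma with Benjamini-Hochberg adjustment, adjusted p = 0.0518). Of the 21 clathrin and adaptor genes, 4 lay below all controls in every KO embryo and 0 above, where 7.05% and 11.9% of all transcripts did so. AP1B1, an adaptor subunit of the trans-Golgi and endosomes, was one of the 4, at 29.2, 31.3 and 38.9 in the controls and 15.9, 22.0, 5.96 and 13.96 in the KO embryos (log2 fold change -1.26, adjusted p = 0.068 in the same fit). In CDX2 KO no gene of the 7 lists passed by limma, edgeR or DESeq2, and at an unadjusted limma p under 0.05 there was 1, a clathrin or adaptor gene that was lower.

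Markers of the cell types of the blastocyst were read beside the trafficking genes. Of 9 trophectoderm markers tested, GATA3 and GATA2 were lower and TFAP2C was higher past the threshold. SLC34A2 was lower as well with edgeR and DESeq2 and with limma after quantile normalization and after rescaling by median ratios. With DESeq2 KRT18 was also lower, and after quantile normalization TFAP2C did not pass. The fit with the Y-linked covariate rests on 1 KO embryo, so it cannot decide whether the marker calls hold. The summed trophectoderm level was 3760 to 9022 in the controls and 4346 to 6062 in the KO embryos. Of 6 primitive endoderm markers tested, APOA1 was lower past the threshold. The 6 had a median log2 fold change of -0.75, with 4 negative and 2 positive, and 2 lay below all controls in every KO embryo. Their sums, which were mostly FN1, were 870.4 to 1040 in the controls against 592 to 1338 in the KO embryos. No inner cell mass marker of 5 tested passed by limma, edgeR or DESeq2 (1 higher and 1 lower at an unadjusted limma p under 0.05), with sums of 158 to 233 against 126 to 305. Markers of cumulus and granulosa cells, which surround the oocyte, were low, with 4 of 12 listed and sums of 17.1 to 59.2 against 4.9 to 34.7. WT control embryo 1, often the highest control for the trafficking genes, also had the highest trophectoderm and cumulus sums of the controls. Its trophectoderm sum was mostly KRT8 and KRT18. Its cumulus sum was mostly HSD3B1, at 43.4 against 1.08 and 0.0 in WT control embryos 2 and 3. CYP11A1 was also highest in that embryo, while FSHR and VCAN were not, so the cumulus list as a whole did not follow it. In CDX2 KO no marker passed by limma on the deposited scale (1 trophectoderm marker lower and 1 cumulus marker higher at an unadjusted p under 0.05). The trophectoderm marker SLC34A2 passed as lower with limma after quantile normalization and after rescaling by median ratios, and with edgeR and DESeq2. Trophectoderm sums were 5278 to 13943 in the controls and 2456 to 8580.1 in the CDX2 KO embryos, and cumulus sums, from 10 of 12 markers listed, were 40.3 to 99.6 against 66.6 to 109. The part of these markers in the values of the trafficking genes was not tested.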

How the data were processed

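Single embryo Smart-seq2 libraries of 3 WT control, 4 GATA3 KO and 4 CDX2 KO blastocysts were analysed from 2 tables. According to the submitters' processing notes, the tools were Trimmomatic, HISAT2, featureCounts and DESeq2, on ARS-UCD1.2. The signal the authors deposited for each embryo is a read count scaled by that embryo's size factor, which was set separately in each table. Values were whole multiples of 1 step (tolerance 0.02 reads) in 100.0% of cases, from which whole reads were recovered. On these reads, edgeR called 126 transcripts in GATA3 KO and 1 in CDX2 KO, and DESeq2 158 and 10. The authors' own fold changes and p-values in the tables were not used. Columns of WT control embryos were tied to single samples, and columns of KO embryos only to their group.

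Symbols came from a RefSeq gene table matched on accession, which named 98.6% of each table. Its assembly differs from that of the reads, so no coordinates are given. Transcript lengths were not used, so levels of different genes are not compared, except to choose the named gene with the highest count in each family. Whether reads were counted by strand is not given in the sources used here.

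The test was limma 3.58.1 in R 4.3.3, run within 1 table on log2(normalized count + 1) with a prior that follows the mean. It covered all transcripts whose mean was 10 or more, and p-values were adjusted over all of them by Benjamini-Hochberg. On this scale the change of low genes is understated. Single genes were also tested by exact permutation (35 splits of the 7 embryos). The alternatives tried were rescaling by median ratios, quantile normalization, pseudocounts of 0.1 and 5, a minimum mean of 100 or none, fold changes of 2 and 0.5, adjusted p alone, no trend, edgeR 4.0.16, DESeq2 1.42.0, and leaving out each embryo. The Y-linked covariate (more than 3 reads or not) was added after the data were seen. It leaves 1 KO embryo in each table to set the difference from the controls. Code was tested on simulated data, under Python 3.11.15 with scipy 1.17.1, pandas 2.3.3 and numpy 2.4.6.

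The members and lists were chosen with earlier results of these data known. Genes named were those past the threshold, the 5 largest rises and falls without overlap in each table, the highest gene of each family in WT control embryos, and all coatomer, ARF and retromer core genes. Of these, 1 gene is not reported here by name. Others were chosen after their values were seen. Nothing states that embryos of a group came from separate fertilizations, so p-values measure the spread between embryos. Reads without molecular identifiers are not independent molecules, and the floor of 3 reads covers counting error only.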

Additional observations from a re-analysis of the deposited data

Results flagged for a closer look

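In 3 of the 54 sets of 4 KO embryos examined (each named member in each knockout), 1 embryo stood far from the other 3 by Dixon's criterion, which chance gives in about 1 of 20 sets, or 2.7 of 54. ARF2 had a normalized count of 11.91 in GATA3 KO embryo 5, where the other GATA3 KO embryos had 26.27 to 28.94. In CDX2 KO embryo 4 ARF2 had 43.12, where the others had 20.97 to 24.51. COPG1 had 62.2 in the same embryo, where the others had 32.62 to 36.77.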

How the results depend on the processing

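The count of members past the threshold in GATA3 KO was 2, and it was 0 with a mean of at least 100 (1 member left to test) and without the trend. It ran from 0 to 10 when each embryo was left out. Other settings gave 2 or 3, leaving aside the fit with the Y-linked covariate, which rests on 1 KO embryo. The median log2 fold change of the members in GATA3 KO was 0.29. It was 0.18 with DESeq2 and with edgeR, 0.20 after rescaling by median ratios, 0.02 without a filter (126 members), 0.51 with a mean of at least 100, 0.39 with the Y-linked covariate, and 0.20 to 0.43 with an embryo left out. In CDX2 KO the count was 0 in every setting, and the median of -0.24 was -0.05 with edgeR, -0.04 with DESeq2, -0.12 after rescaling by median ratios, 0.10 with the Y-linked covariate, -0.59 with a mean of at least 100 (3 members), and -0.32 to -0.11 with an embryo left out. Apart from the smaller number of genes tested, the cause of these shifts was not tested.

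For the named members tested in GATA3 KO, 363 of 385 refits kept the side of the threshold, 14 lost a call (ARF4 and RAB6A, 7 each) and 8 gained one. These refits include the one with the Y-linked covariate, which rests on 1 KO embryo. The sign changed in 15 refits of 6 members that did not pass. In CDX2 KO none of 419 refits made a call and the sign changed in 38, over 19 of 26 members. No paired analysis was possible because the columns of KO embryos do not carry the replicate numbers of the labels.

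Depth limits the low members most. The floor of 3 reads stood for a normalized count of 1.29 to 4.66 in the libraries compared for GATA3 KO. Differences near it were not detectable.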
